A study of Mus musculus with 16 samples.

Results

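The genes described here are 10 neutrophil granule and effector genes, S100a8, S100a9, Ngp, Camp, Ltf, Lcn2, Mmp8, Mmp9, Retnlg and Hp, out of 19505 genes measured. They were chosen by gene symbol, and each is measured by 1 probe set, so none was picked among several. The levels come from Clariom S arrays hybridised with RNA of olfactory mucosa cells of S100a5-tauGFP mice, sorted by green fluorescence. In these mice tauGFP reports on S100a5, which encodes a calcium-binding protein and is known to rise with activity in olfactory sensory neurons. Mice of both sexes, 24 in all and 7 to 12 weeks old, were held singly for 40 h in chambers under a clean air flow of 3.1 L/min, and from 26 h on they received octanol, an alcohol odorant, or filtered air as vehicle for 10 s every 20 min.

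Each exposure gave 4 pools with a GFP+ and a GFP- array, so there are 4 groups of 4 arrays, and each array holds RNA of 1 sorted fraction pooled from 3 mice. All groups carry the reporter, and the vehicle mice differ from the octanol mice only in the odorant, as far as the labels say. Values are log2 signals as deposited. The level taken as background is 6.32 log2, which 95% of 321 vomeronasal receptor genes stay under in their mean level. The sorts can be checked on S100a5, which was 0.86 log2 higher in GFP+ than in GFP- cells after octanol (SE 0.12, limma adjusted p = 4.61e-04) and 0.82 higher after vehicle (SE 0.12, adjusted p = 6.38e-04). Omp, the marker of mature olfactory sensory neurons, lay between 17.98 and 18.24 log2 on all 16 arrays.

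Neutrophils are short-lived white blood cells that kill microbes with proteins stored in granules and with oxidants made by an NADPH oxidase. Granules are filled in sequence while the cell matures in bone marrow: primary granules with myeloperoxidase and serine proteases, specific granules with lactoferrin, lipocalin and cathelicidin, and gelatinase granules last. Transcription of granule genes is staged in the same order and is driven in part by factors of the C/EBP family and by the factor PU.1, the product of Spi1. In the olfactory mucosa neutrophils are known mainly as cells of blood vessels and as invaders during infection and injury.

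The 10 genes lie on 5 mouse chromosomes. S100a8 and S100a9 are direct neighbours on chromosome 3, and S100a6, S100a7a and S100a8 are the 3 protein-coding genes between S100a9 and S100a5, the gene whose reporter was sorted on. Camp, Ngp and Ltf follow each other on chromosome 9 with 8 protein-coding genes between Camp and Ngp and 20 between Ngp and Ltf, and Mmp8 is on the same chromosome. Lcn2 and Mmp9 are on chromosome 2, Retnlg on chromosome 16 and Hp on chromosome 8. RefSeq promoter sequences (GRCm38.p6, 250 bases before to 50 after each start) were matched for 8 of the 10 genes. The letters TTGCNNAA, a core of the site known for C/EBP factors, were found on either strand in 6 of these 8 promoters, against 10.8% of 32851 mouse promoters of the same length. The looser TTNNGNAA, which overlaps it, was found in 7 of 8 against 40.7%. GAGGAA, a core known for PU.1, was found in 4 of 8 against 28.3%, GGGGAAG in 1 of 8 against 10.1% and the TATA letters TATAAA in 3 of 8 against 13.6%. A match describes the letters only and is no shown site. Sequences of 4 of the 6 promoters with TTGCNNAA are printed to show how far from the start the letters lie, which differs from gene to gene, with each TTGCNNAA match in capitals. They are Ngp (chr9:110419558-110419857, plus strand), Ltf (chr9:111019042-111019341, plus strand), S100a9 (chr3:90695672-90695971, minus strand) and Mmp8 (chr9:7558179-7558478, plus strand), each given 5′ to 3′ along its gene.
Ngp: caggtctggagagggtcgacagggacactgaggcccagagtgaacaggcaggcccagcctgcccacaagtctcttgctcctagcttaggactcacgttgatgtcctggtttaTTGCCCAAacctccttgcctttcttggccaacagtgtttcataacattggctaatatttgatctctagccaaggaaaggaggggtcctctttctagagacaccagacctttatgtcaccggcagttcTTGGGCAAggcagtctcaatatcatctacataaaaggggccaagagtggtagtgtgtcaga
Ltf: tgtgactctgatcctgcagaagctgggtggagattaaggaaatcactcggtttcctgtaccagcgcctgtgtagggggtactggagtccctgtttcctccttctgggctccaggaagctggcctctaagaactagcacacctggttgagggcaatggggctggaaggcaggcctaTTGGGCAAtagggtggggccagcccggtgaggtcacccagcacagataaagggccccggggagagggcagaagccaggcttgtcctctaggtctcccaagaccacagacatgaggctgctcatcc
S100a9: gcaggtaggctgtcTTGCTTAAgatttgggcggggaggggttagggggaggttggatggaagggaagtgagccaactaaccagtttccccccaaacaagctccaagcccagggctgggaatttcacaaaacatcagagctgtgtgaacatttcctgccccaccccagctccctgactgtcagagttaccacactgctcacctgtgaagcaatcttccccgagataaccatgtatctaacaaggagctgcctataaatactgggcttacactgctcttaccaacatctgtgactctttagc
Mmp8: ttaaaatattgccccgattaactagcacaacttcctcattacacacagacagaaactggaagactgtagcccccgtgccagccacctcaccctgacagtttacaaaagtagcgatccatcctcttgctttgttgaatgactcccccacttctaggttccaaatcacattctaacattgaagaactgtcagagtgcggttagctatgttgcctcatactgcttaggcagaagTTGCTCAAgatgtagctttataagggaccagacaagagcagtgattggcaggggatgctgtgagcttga
Counted from the start of the gene in RefSeq, the Ngp window holds 2 matches, with first bases at -138 and -11. In Ltf the match begins at -75, in S100a9 at -236 and in Mmp8 at -19. Lcn2 and Retnlg hold 1 match each, at -216 and -246, and the windows of S100a8 and Camp hold none. The TATA letters begin at -30 in S100a8, but at 1 in S100a9 and, on the other strand, at -3 in Mmp8. Whether the RefSeq starts are those used in these cells was not tested.

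Every one of the 10 genes was far lower in GFP+ cells than in GFP- cells after both exposures. Retnlg, a resistin-like secreted protein, was 111-fold lower in GFP+ cells after octanol and 326-fold lower after vehicle, and S100a8 was 166-fold and 311-fold lower. All 10 passed the limma test in both comparisons, against 13.2% of all genes called lower after octanol and 13.5% after vehicle. The median difference of the 10 was -7.07 log2 after octanol and -7.91 after vehicle, against 0.14 and 0.13 over all genes. Raising each value under background to that level gave medians of -6.90 after octanol and -7.86 after vehicle for the 10. No GFP+ array reached the level of any GFP- array of its exposure for any of the 10, and the gap between the highest GFP+ and the lowest GFP- array ran from 4.15 log2 (Ngp) to 6.03 (Camp) after octanol and from 5.66 (Ltf) to 7.23 (Retnlg) after vehicle. The difference was negative in all 4 pools for all 10 genes, as for 16.4% of all genes after octanol and 17.6% after vehicle. With total RNA of sorted bulk cells, fewer cells of a type and less RNA per cell cannot be told apart.

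**Figure D1:**
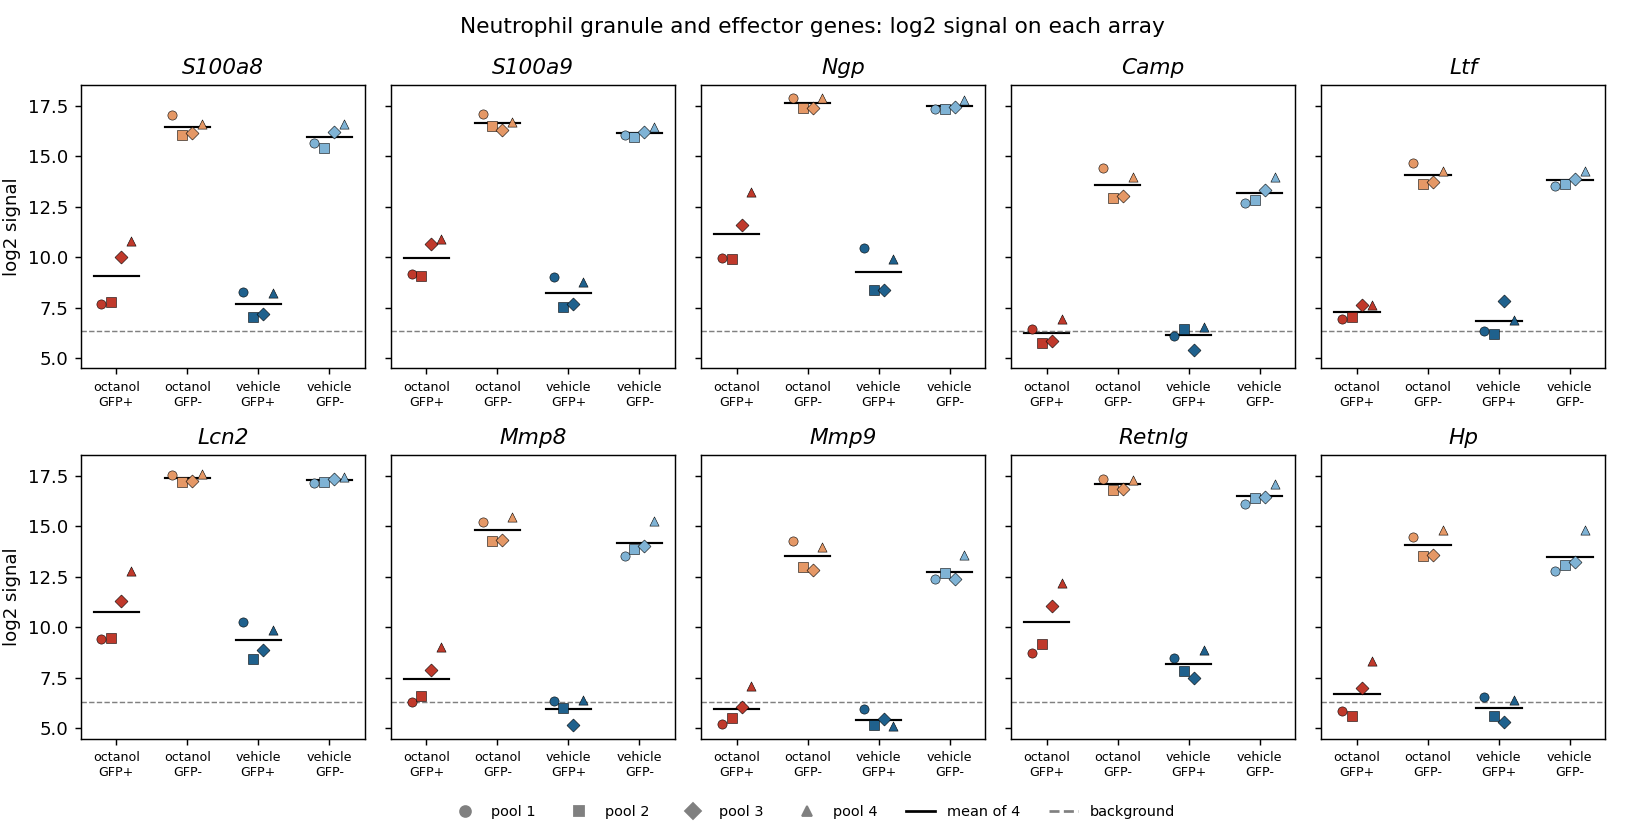
Log2 signal of each of the 10 genes on every array, by group, with pools 1 to 4 as symbols, the mean of 4 arrays as a bar and the background of 6.32 log2 as a dashed line. Each gene sits far lower in GFP+ than in GFP- arrays, and octanol GFP+ pool 4 is the highest octanol GFP+ array in all 10 panels.

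S100a8 and S100a9 encode the subunits of calprotectin, a cytosolic protein that binds calcium and withholds zinc and manganese from microbes. On octanol GFP+ arrays S100a8 read 7.68, 7.78, 10.01 and 10.78 log2 (pools 1 to 4), against 17.04, 16.03, 16.12 and 16.57 on octanol GFP- arrays. On vehicle GFP+ arrays it read 8.27, 7.02, 7.20 and 8.23, against 15.65, 15.41, 16.18 and 16.60 on vehicle GFP- arrays. Octanol pools 3 and 4 stood above all other GFP+ arrays. The difference between GFP+ and GFP- cells was -7.38 log2 after octanol (SE 0.52, limma adjusted p = 3.50e-06) and -8.28 after vehicle (SE 0.52, adjusted p = 1.64e-06).

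S100a9 read 9.16, 9.04, 10.65 and 10.88 log2 on octanol GFP+ arrays, against 17.09, 16.48, 16.28 and 16.68 on octanol GFP- arrays. Vehicle GFP+ arrays gave 9.0, 7.51, 7.68 and 8.77, against 16.03, 15.93, 16.19 and 16.46 on vehicle GFP- arrays. It was the 1 gene of the 10 whose 4 octanol GFP+ values all lay above its 4 vehicle GFP+ values. GFP+ cells were 104-fold lower than GFP- cells after octanol (-6.70 log2, SE 0.38, adjusted p = 9.01e-07) and 241-fold lower after vehicle (-7.91, SE 0.38, adjusted p = 3.47e-07).

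Ngp, Camp, Ltf and Lcn2 encode proteins of specific granules. Ngp, the neutrophilic granule protein of mice, is a relative of the cathelicidins. It read 9.94, 9.90, 11.58 and 13.22 log2 on octanol GFP+ arrays, against 17.88, 17.40, 17.37 and 17.88 on octanol GFP- arrays. After vehicle it read 10.46, 8.38, 8.36 and 9.89 in GFP+ cells, against 17.34, 17.33, 17.41 and 17.76 in GFP- cells. The SD was 1.58 log2 over octanol GFP+ and 0.286 over octanol GFP- arrays, and 1.07 over vehicle GFP+ and 0.202 over vehicle GFP- arrays. The GFP- values of Ngp and of Lcn2 lie near the top of the scale. Whether high signals are compressed there, which would make folds too small, was not tested. Ngp was 88.7-fold lower in GFP+ cells after octanol (-6.47, SE 0.51, limma adjusted p = 8.45e-06) and 292-fold lower after vehicle (-8.19, SE 0.51, adjusted p = 1.72e-06).

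Lcn2 encodes a lipocalin that captures bacterial siderophores and so withholds iron. Its octanol GFP+ values were 9.43, 9.46, 11.27 and 12.78 log2, against 17.56, 17.18, 17.24 and 17.60 in octanol GFP- cells. Its vehicle GFP+ values were 10.27, 8.43, 8.86 and 9.88, against 17.12, 17.16, 17.32 and 17.45 in vehicle GFP- cells. As for Ngp, octanol pools 3 and 4 were the highest GFP+ arrays. Lcn2 was 101-fold lower in GFP+ cells after octanol (-6.66, SE 0.50, limma adjusted p = 5.50e-06) and 239-fold lower after vehicle (-7.90, SE 0.50, adjusted p = 1.73e-06).

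Camp, the mouse cathelicidin that is cut into an antimicrobial peptide, lay near background in GFP+ cells. It gave 6.41, 5.75, 5.84 and 6.91 log2 on octanol GFP+ arrays, against 14.41, 12.94, 13.001 and 13.99 on octanol GFP- arrays. It gave 6.11, 6.43, 5.41 and 6.53 on vehicle GFP+ arrays, against 12.66, 12.82, 13.31 and 13.95 on vehicle GFP- arrays. After each exposure 2 of 4 GFP+ arrays exceeded background. GFP+ cells had at least 137-fold lower Camp after octanol (fitted -7.36, SE 0.25, limma adjusted p = 6.78e-08) and at least 111-fold lower after vehicle (fitted -7.07, SE 0.25, adjusted p = 6.69e-08). A fold given as "at least" has values under background raised to it.

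Ltf encodes lactoferrin, an iron-binding protein of granules and of glandular secretions. It read 6.94, 7.01, 7.60 and 7.62 log2 on octanol GFP+ arrays, against 14.64, 13.60, 13.73 and 14.26 on octanol GFP- arrays. Vehicle GFP+ arrays read 6.36, 6.21, 7.85 and 6.90, against 13.50, 13.63, 13.87 and 14.28 on vehicle GFP- arrays. Here the highest GFP+ array was vehicle pool 3, unlike the other 9 genes, whose highest GFP+ array was octanol pool 4. GFP+ cells had 109-fold lower Ltf after octanol (-6.76, SE 0.27, limma adjusted p = 1.46e-07). After vehicle, where 3 of 4 GFP+ arrays exceeded background, the fold was at least 125 lower (fitted -6.99, SE 0.27, adjusted p = 1.08e-07).

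Mmp8, the neutrophil collagenase, and Mmp9, gelatinase B, are metalloproteases that cut extracellular matrix. Mmp8 read 6.31, 6.60, 7.88 and 9.04 log2 on octanol GFP+ arrays, against 15.19, 14.25, 14.30 and 15.47 on octanol GFP- arrays. It read 6.36, 5.99, 5.14 and 6.39 on vehicle GFP+ arrays, against 13.51, 13.85, 14.02 and 15.28 on vehicle GFP- arrays. Octanol pools 3 and 4 were the only GFP+ arrays of Mmp8 more than 1 log2 above background. GFP+ cells had at least 162-fold lower Mmp8 after octanol (fitted -7.35, SE 0.41, limma adjusted p = 7.83e-07) and at least 226-fold lower after vehicle (fitted -8.19, SE 0.41, adjusted p = 4.17e-07).

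Mmp9 read 5.19, 5.48, 6.04 and 7.09 log2 in octanol GFP+ cells, against 14.27, 12.96, 12.85 and 13.98 in octanol GFP- cells. It read 5.93, 5.15, 5.47 and 5.12 in vehicle GFP+ cells, against 12.36, 12.66, 12.40 and 13.58 in vehicle GFP- cells. Among its 8 GFP+ arrays only octanol pool 4 exceeded background. GFP+ cells had at least 128-fold lower Mmp9 after octanol (fitted -7.56, SE 0.39, limma adjusted p = 4.70e-07) and at least 86.5-fold lower after vehicle (fitted -7.33, SE 0.39, adjusted p = 5.72e-07).

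Retnlg and Hp are secreted products. Retnlg read 8.70, 9.16, 11.03 and 12.18 log2 on octanol GFP+ arrays, against 17.35, 16.77, 16.85 and 17.31 on octanol GFP- arrays. On vehicle GFP+ arrays it read 8.49, 7.82, 7.46 and 8.85, against 16.07, 16.39, 16.45 and 17.09 on vehicle GFP- arrays. Of its octanol GFP+ arrays only pool 1 lay within the range of the vehicle GFP+ arrays. The differences were -6.80 after octanol (SE 0.49, limma adjusted p = 4.01e-06) and -8.35 after vehicle (SE 0.49, adjusted p = 1.01e-06).

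Hp encodes haptoglobin, a plasma protein of the liver that binds free haemoglobin and is also stored by granulocytes. It read 5.84, 5.61, 7.01 and 8.31 log2 in octanol GFP+ cells, against 14.44, 13.53, 13.56 and 14.81 in octanol GFP- cells. It read 6.54, 5.62, 5.32 and 6.41 in vehicle GFP+ cells, against 12.79, 13.08, 13.25 and 14.83 in vehicle GFP- cells. After each exposure 2 of 4 GFP+ arrays were above background. GFP+ cells had at least 137-fold lower Hp after octanol (fitted -7.40, SE 0.40, limma adjusted p = 6.18e-07) and at least 136-fold lower after vehicle (fitted -7.51, SE 0.40, adjusted p = 5.59e-07).

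Residual signal in GFP+ cells was measurable for part of the genes. Of 80 GFP+ values 61 lay above background, and S100a8, S100a9, Ngp, Lcn2 and Retnlg did so on all 8 GFP+ arrays. For these 5 genes the GFP+ signal made up 0.153 to 0.409% of the GFP- signal in octanol pool 1, 0.329 to 0.576% in pool 2, 1.44 to 2.02% in pool 3 and 1.79 to 3.94% in pool 4. After vehicle the shares were 0.520 to 0.870% in pool 1, 0.202 to 0.298% in pool 2, 0.188 to 0.284% in pool 3 and 0.302 to 0.526% in pool 4. For these 5 genes the ranges of octanol pools 3 and 4 lay above those of all other pools. This did not hold for all 10. The share of Ltf was 1.43 and 1.00% in octanol pools 3 and 4 and 1.53% in vehicle pool 3, that of Hp 1.06 and 1.10% in octanol pools 3 and 4 and 1.32% in vehicle pool 1, and that of Camp 0.698 and 0.739% in octanol pools 3 and 4 and 1.19% in vehicle pool 2. Signal is not a count of molecules, so these percentages compare array signals and are no cell fractions.

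**Figure D2:**
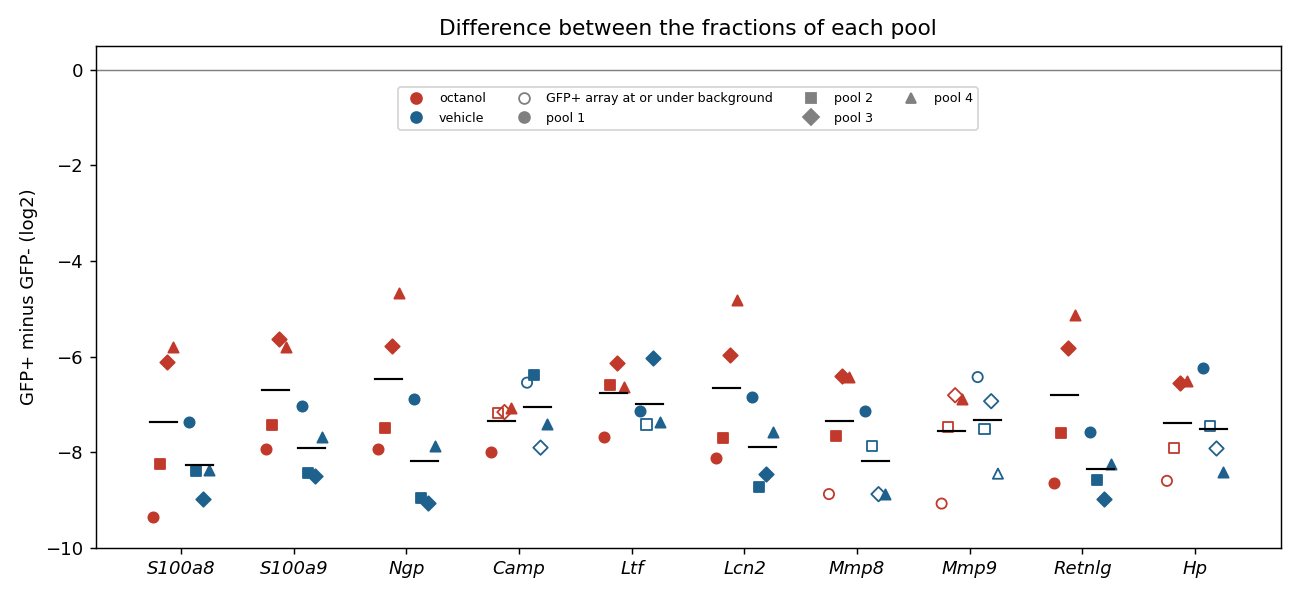
GFP+ minus GFP- difference (log2) of each gene within each pool, octanol in red and vehicle in blue, with the mean of 4 pools as a bar and open symbols where the GFP+ array was at or under background. All differences lie between -9.36 and -4.66, and octanol pools 3 and 4 have the smallest gaps for S100a8, S100a9, Ngp, Lcn2, Mmp8 and Retnlg.

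Other genes of the neutrophil programme were lower in GFP+ cells as well, while 13.2% of all genes were called lower after octanol and 13.5% after vehicle. Of 5 measured primary granule genes all 5 were lower after both exposures, with median differences of -4.18 log2 after octanol and -3.74 after vehicle, or -2.75 and -2.33 when low values were raised to background. The neutrophil elastase gene Elane was 65.9-fold lower after octanol and 83.0-fold after vehicle, and the myeloperoxidase gene Mpo 64.5-fold after octanol and 80.5-fold after vehicle. The cathepsin G gene Ctsg and Ms4a3, a marker of granulocyte and monocyte precursors, were above background on 0 of 8 GFP+ arrays, so Ctsg was at least 6.73-fold lower after octanol and 5.01-fold after vehicle and Ms4a3 at least 5.02-fold after octanol and 4.30-fold after vehicle. Mpo read 13.09 to 14.58 log2 in octanol GFP- cells and 13.24 to 14.76 in vehicle GFP- cells, well above background. Of 15 further granule and antimicrobial genes, 15 were lower after octanol and 14 after vehicle (medians -4.95 after octanol and -4.26 after vehicle, or -4.51 and -4.03 when low values were raised to background). The chitinase-like gene Chil3 was 111-fold lower after octanol and 194-fold after vehicle and the lysozyme Lyz2 50.7-fold after octanol and 70.9-fold after vehicle. With part of their GFP+ arrays under background, the annexin Anxa1 was at least 92.99-fold lower after octanol and 107-fold after vehicle and the integrin chain Itgam at least 90.8-fold after octanol and 85.4-fold after vehicle. The exception after vehicle was Stfa3, a stefin, which read -0.50 log2 (SE 0.20, limma adjusted p = 0.0892), was above background on 0 of 4 vehicle GFP+ and 1 of 4 vehicle GFP- arrays and was named after its values were seen.

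Surface receptors and oxidase subunits were lower too, against 13.2% of all genes called lower after octanol and 13.5% after vehicle. All 14 measured surface receptor genes were lower in GFP+ cells after both exposures (medians -4.04 after octanol and -3.72 after vehicle, or -3.86 and -3.52 when low values were raised to background). The integrin chain Itgb2l, above background on 0 of 8 GFP+ arrays, was at least 55.2-fold lower after octanol and 39.9-fold after vehicle. Its relative Itgb2 was at least 52.6-fold lower after octanol and 42.9-fold after vehicle, and Csf3r, the receptor for granulocyte colony-stimulating factor, at least 55.7-fold after octanol and 33.8-fold after vehicle. The selectin ligand Selplg was at least 52.0-fold lower after octanol and 57.3-fold lower after vehicle. All 5 measured NADPH oxidase genes were lower (medians -5.71 after octanol and -6.08 after vehicle, with or without that step). The GTPase Rac2 was at least 80.8-fold lower after octanol and 88.3-fold after vehicle, Ncf1 84.4-fold after octanol and 104-fold after vehicle, the catalytic subunit Cybb 52.5-fold after octanol and 67.8-fold after vehicle and Ncf4 38.1-fold after octanol and 32.8-fold after vehicle. Of 7 transcription factors of the lineage 5 were lower after each exposure. Spi1 was 71.4-fold lower after octanol and 97.8-fold after vehicle, Runx1 at least 10.6-fold after octanol and 11.7-fold after vehicle and Cebpd at least 6.72-fold after octanol and 4.65-fold after vehicle. Cebpe, a factor needed for specific granules, was above background on 0 of 8 GFP+ arrays and at least 1.68-fold lower after octanol and 1.69-fold after vehicle. Cebpb (0.13 log2 after octanol and 0.02 after vehicle) and Gfi1 (-0.43 after octanol and -0.06 after vehicle) did not pass, and are named after their values were seen.

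The S100 relatives of S100a8 and S100a9 were divided. Of 11 measured, 4 were lower and 4 higher in GFP+ cells after octanol, and 4 were lower and 3 higher after vehicle, while 13.2% and 13.5% of all genes were called lower and 16.7% and 14.7% higher. S100a11 was 51.2-fold lower after octanol and 56.8-fold after vehicle, S100a6 9.64-fold after octanol and 5.69-fold after vehicle, S100a10 at least 6.07-fold after octanol and 5.50-fold after vehicle and S100a4 3.37-fold after octanol and 3.90-fold after vehicle. Higher were S100a5, S100a13 (0.48 log2 after octanol and 0.62 after vehicle) and S100a3 (at least 1.94-fold after octanol and 1.49-fold after vehicle, with 1 of 4 octanol and 2 of 4 vehicle GFP- arrays above background). After octanol S100a14 was also called higher (0.42 log2). It was above background on only 1 of 4 octanol GFP+ and 0 of 4 octanol GFP- arrays, and its fold was at least 1.04 higher. S100a3, S100a13 and S100a14 are outside the rule for named genes and were named after their values were seen. Of 7 chemokine and growth factor genes that draw or raise neutrophils, 2 were lower after each exposure, against 13.2% and 13.5% of all genes, and 5 did not pass. All 4 GFP+ arrays of an exposure were at or under background for 5 of the 7. The cytokine Il1b was at least 41.5-fold lower after octanol and 37.1-fold after vehicle, and the chemokine Cxcl2, above background on 0 of 8 GFP+ arrays, at least 2.15-fold after octanol and 1.49-fold after vehicle.

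Markers of other cells moved with the 10 genes between the fractions. Of all genes 13.2% were called lower after octanol and 13.5% after vehicle. Lower in GFP+ cells were all 6 monocyte markers after both exposures (medians -4.91 after octanol and -5.41 after vehicle), 4 of 5 macrophage markers after both (-0.90 after octanol and -1.24 after vehicle), 3 of 4 B cell markers after octanol and 4 after vehicle (-2.85 after octanol and -3.29 after vehicle), and 5 of 6 and 6 of 6 T and NK cell markers (-1.92 after octanol and -2.19 after vehicle). The same held for 5 of 6 eosinophil, basophil and mast cell markers after both (-2.36 after octanol and -2.35 after vehicle), both erythroid markers (-2.65 after octanol and -2.78 after vehicle) and 5 and 6 of 10 gland and epithelial markers (-0.57 after octanol and -0.80 after vehicle). Of 8 mature neuron markers 3 were higher after octanol and 2 after vehicle (medians 0.23 after octanol and 0.15 after vehicle), and 0 were lower, while 16.7% and 14.7% of all genes were called higher. The neuron markers lie near the top of the scale, and whether their differences are compressed there was not tested. Raising values under background to it gave medians of -4.51 and -4.46 (octanol and vehicle) for monocyte, -2.20 and -2.64 for B cell, -0.59 and -1.06 for T and NK cell and -0.87 and -1.04 for eosinophil, basophil and mast cell markers. The T cell gene Cd3g, counted among the 6 lower after vehicle, was above background on 0 of 4 arrays in every group. It was named after its values were seen. The monocyte marker Ly6c2 was 179.8-fold lower after octanol and at least 396-fold lower after vehicle, and the B cell receptor chain Cd79a at least 12.1-fold after octanol and 25.3-fold after vehicle. The eosinophil granule gene Prg2 was 13.9-fold lower after octanol and 13.5-fold after vehicle, the red cell anion exchanger Slc4a1 9.33-fold after octanol and 10.02-fold after vehicle and the gland factor Sox9 9.71-fold after octanol and 14.1-fold after vehicle. On average over the group, 4 of 6 monocyte markers were above background in octanol GFP+ and 3 in vehicle GFP+ cells, 1 of 4 B cell markers in both, 0 of 6 T and NK cell markers in both, and all 5 macrophage markers in both. What part each of these cell types has in the levels of the 10 genes was not tested, and several genes of the neutrophil lists, such as Itgam, Lyz2 and Cybb, are known in monocytes too.

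Within the GFP- cells the 10 genes went up and down together from pool to pool. Octanol pools 1 and 4 held the 2 highest values of all 10 genes among octanol GFP- arrays, and vehicle pool 4 was the highest vehicle GFP- array for all 10. As deviations from the mean of its exposure, Hp stood at 0.36, -0.56, -0.52 and 0.73 log2 in octanol pools 1 to 4 and at -0.70, -0.41, -0.24 and 1.34 in vehicle pools 1 to 4. Lcn2 moved over a smaller range, with 0.16, -0.22, -0.16 and 0.21 after octanol and -0.14, -0.10, 0.06 and 0.18 after vehicle. Over the 8 GFP- arrays, pairs of the 10 genes had Pearson correlations of these deviations between 0.748 and 0.996, with a median of 0.920. The points share arrays and labelling with each other, so this is a description of 8 pools.

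The genes most like them over the same 8 arrays came from 6496 genes with enough level and spread, whose median correlation with the mean of the 10 was -0.10 and whose 95th percentile was 0.803. Csf2rb, a shared chain of cytokine receptors, had the highest (r = 0.991, rho = 0.976). It was followed by the peptidoglycan-recognition gene Pglyrp1 (r = 0.986, rho = 0.905), the oxidase subunit Cyba (r = 0.981, rho = 0.881), Itgb2l (r = 0.980, rho = 0.952) and the annexin Anxa2 (r = 0.979, rho = 0.929). The lysosomal mannosidase Man2b1 (r = 0.978), Tm6sf1 (r = 0.977), the glutaredoxin Glrx (r = 0.977), the hyaluronan receptor Cd44 (r = 0.975) and the Fc receptor Fcgr3 (r = 0.975) completed the first 10. By list, the median correlation with the mean of the 10 genes was 0.939 for oxidase genes, 0.914 for surface receptors, 0.901 for further granule genes, 0.842 for monocyte markers, 0.802 for primary granule genes and 0.686 for eosinophil, basophil and mast cell markers. It was 0.389 for S100 relatives, 0.380 for the transcription factors (-0.409 to 0.906 among its 7 genes) and -0.070 for the chemokine and growth factor genes. Among the other markers it was 0.477 for erythroid, 0.129 for macrophage, -0.082 for gland and epithelial, -0.160 for T and NK cell, -0.423 for B cell and -0.573 for mature neuron markers. B cell markers ran another course, with a list mean of 9.59, 9.0, 7.84 and 7.61 log2 in octanol GFP- pools 1 to 4 and 10.42, 9.74, 8.61 and 7.76 in vehicle GFP- pools 1 to 4. The lowest of these in each exposure was pool 4, where the 10 genes were high. In octanol pool 1, though, both were high: the B cell list had its highest octanol value there. The mean deviation of the 10 genes was 0.46 log2 in octanol pool 1 and 0.33 in octanol pool 4.

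**Figure D3:**
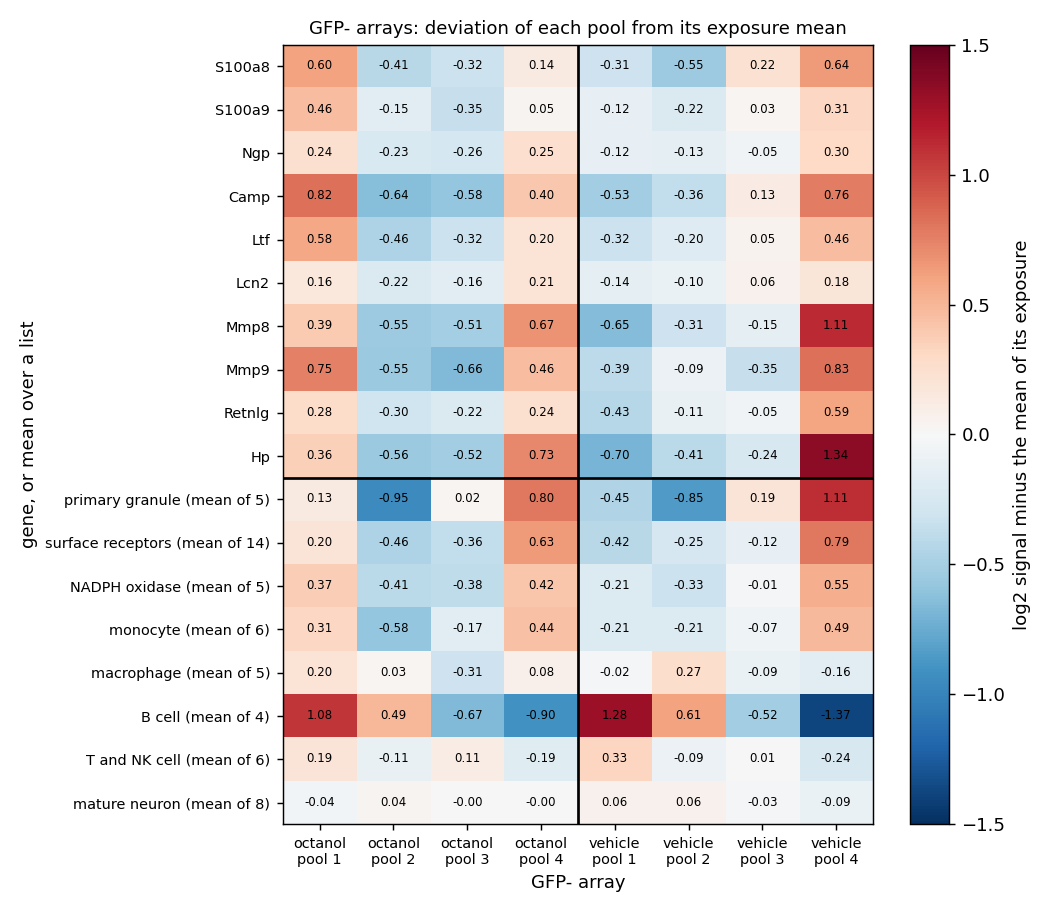
Deviation of each GFP- array from the mean of its exposure (log2), for the 10 genes above the line and for list means below it, octanol pools at left and vehicle pools at right. The 10 genes share their sign in every pool except vehicle pool 3, with Hp at 1.34 in vehicle pool 4, and the B cell list runs a different course.

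The next question was whether octanol altered these levels. In GFP+ cells all 10 genes had a higher fitted mean after octanol than after vehicle, and none passed the test: 0 of 10, as 0% of all genes (limma, smallest adjusted p 1.00). At an unadjusted p under 0.05 there were 4 of 10, all higher, against 3.73% of all genes in either direction and 2.26% higher. These were Retnlg (2.12 log2, 95% interval 0.58 to 3.65), Ngp (1.89, 0.22 to 3.56), S100a9 (1.69, 0.60 to 2.78) and Mmp8 (1.48, 0.26 to 2.71). S100a8 (1.38, -0.12 to 2.88) and Lcn2 (1.38, -0.23 to 2.98) followed, then Hp at 0.72, Mmp9 at 0.53, Ltf at 0.46 and Camp at 0.11. For Mmp8, Hp, Mmp9, Ltf and Camp these sizes include GFP+ arrays under background. The median of the 10 was 1.38, against 0.01 over all genes. Of the 10, S100a9 alone had groups of 4 that did not overlap, against 1.25% of all genes.

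The size of those differences rests largely on the GFP+ arrays of octanol pools 3 and 4. Octanol pool 4 was the highest octanol GFP+ array for all 10 genes, and pool 3 was among the 2 highest for 9. The SD over the 4 octanol GFP+ arrays had a median of 1.25 log2 for the 10 genes, against 0.213 for all genes, while the 4 vehicle GFP+ arrays gave 0.645 against 0.201. Without octanol pools 3 and 4, a choice made after seeing these values, the median octanol minus vehicle difference in GFP+ cells was 0.12 in place of 1.38, and 7 of 10 genes were fitted higher. A fall was bound to follow, since the highest arrays were left out, so only its size is described. S100a9 had 0.86 and Retnlg 0.78, while Hp had -0.25, Mmp9 -0.08 and Camp -0.04.

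Spi1 and the means of the monocyte, macrophage and oxidase lists stood higher on the same 2 arrays. The gland list was the highest of all GFP+ arrays in octanol pool 3 but not higher in pool 4. The erythroid list was the highest in octanol pool 4 but not higher in pool 3. Spi1 read 8.60, 9.28, 10.13 and 10.89 log2 on octanol GFP+ arrays of pools 1 to 4, against 8.81, 8.85, 8.84 and 9.43 on vehicle GFP+ arrays. The mean of the 6 monocyte markers was 6.07, 6.13, 6.98 and 7.37 on octanol GFP+ arrays, against 6.05, 6.14, 6.03 and 6.32 on vehicle GFP+ arrays. It lay under background in octanol pools 1 and 2 and in vehicle pools 1 to 3, so part of this rise is under background. Ccr2 was above background on 0 of 4 octanol and 0 of 4 vehicle GFP+ arrays, and Fn1 on 1 of 4 and 0 of 4. Not every gene of these lists stood higher on both arrays. F13a1 read 6.83, 6.85, 7.06 and 6.95 on octanol and 7.05, 6.76, 6.74 and 6.81 on vehicle GFP+ arrays. Ms4a6c read 6.67 and 6.84 in octanol pools 3 and 4, against 6.88 in vehicle pool 4. The mean of the 5 macrophage markers was 7.04, 6.88, 8.14 and 8.09, against 6.67, 7.26, 7.59 and 7.73, and that of the 5 oxidase genes 7.58, 7.12, 8.27 and 8.39, against 7.21, 7.23, 7.51 and 7.41. Mrc1 read 8.78 and 8.23 in octanol pools 3 and 4, against 8.86 in vehicle pool 3. Cyba read 7.99 and 7.82 there, against 8.23 in octanol pool 1. Ncf4 read 7.86 in octanol pool 3, against 7.98 in vehicle pool 4. Mrc1 and Cyba were named after their values were seen. The gland and epithelial list gave 8.58, 8.29, 8.79 and 8.27 on octanol and 8.01, 7.88, 8.35 and 8.17 on vehicle GFP+ arrays. The erythroid list gave 8.91, 8.47, 8.85 and 9.34 on octanol and 8.93, 8.61, 8.63 and 9.04 on vehicle GFP+ arrays. Octanol minus vehicle in GFP+ cells had a median of 0.38 log2 over the gland and epithelial genes, with all 10 at 0.15 or more. The median was 0.38 for monocyte, 0.19 for macrophage, 0.48 for oxidase and 0.09 for erythroid genes, and none of these genes passed. Of the 4 B cell markers only Cd79a had a mean above background in GFP+ cells. The list mean stayed under background, at 5.94, 5.61, 6.08 and 5.90 on octanol and 6.07, 5.81, 5.76 and 5.87 on vehicle GFP+ arrays. A fall could not be seen there, and no rise above background was. Cd79a read 6.35, 5.74, 7.18 and 6.95 on octanol GFP+ arrays, against 6.61, 6.55, 6.56 and 6.69 on vehicle GFP+ arrays, and was thus also highest in octanol pools 3 and 4. The mature neuron list lay between 17.36 and 17.45 on octanol and between 17.34 and 17.42 on vehicle GFP+ arrays. These values are near the top of the scale, where signals may be compressed, so they do not show that neuron content was equal. The part of monocytes, macrophages or the sort of these pools in the result was not tested.

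**Figure D4:**
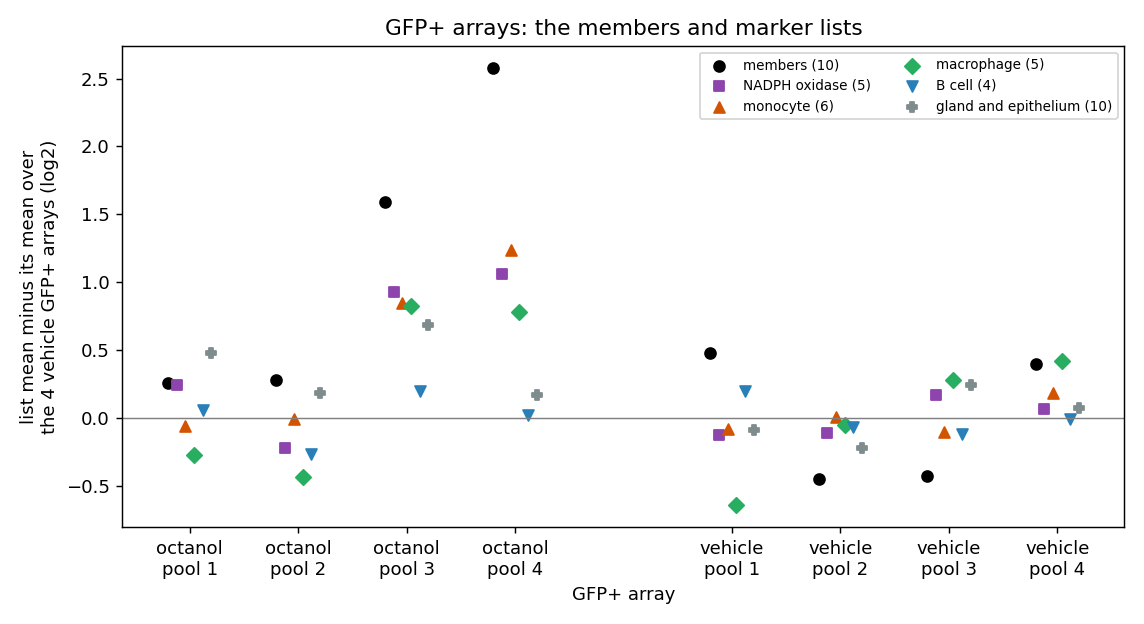
Mean log2 level of the 10 genes and of 5 marker lists on each GFP+ array, less the mean of the same list over the 4 vehicle GFP+ arrays, octanol at left and vehicle at right. The 10 genes and the oxidase, monocyte and macrophage lists stand highest in octanol pools 3 and 4. The gland and epithelial list is highest of all 8 arrays in octanol pool 3, while its octanol pools 2 and 4 lie close together (list means 8.29 and 8.27 log2). The B cell list mean is under background on all 8 arrays, so a fall could not be seen there, and it does not rise above background.

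In GFP- cells the 10 genes were also fitted higher after octanol, and again 0 of 10 passed, as 0% of all genes (limma, smallest adjusted p 0.982). The median was 0.48 log2, against -0.02 over all genes. The differences ran from 0.13 for Lcn2 (95% interval -0.18 to 0.44) to 0.76 for Mmp9 (-0.03 to 1.55). S100a9 (0.48, 0.07 to 0.89) and Retnlg (0.57, 0.08 to 1.06) had an unadjusted p under 0.05, 2 of 10 against 4.58% of all genes in either direction and 2.02% higher. In each of the 10 genes the octanol GFP- values overlapped the vehicle GFP- values, while 1.06% of all genes were higher without overlap.

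**Figure D5:**
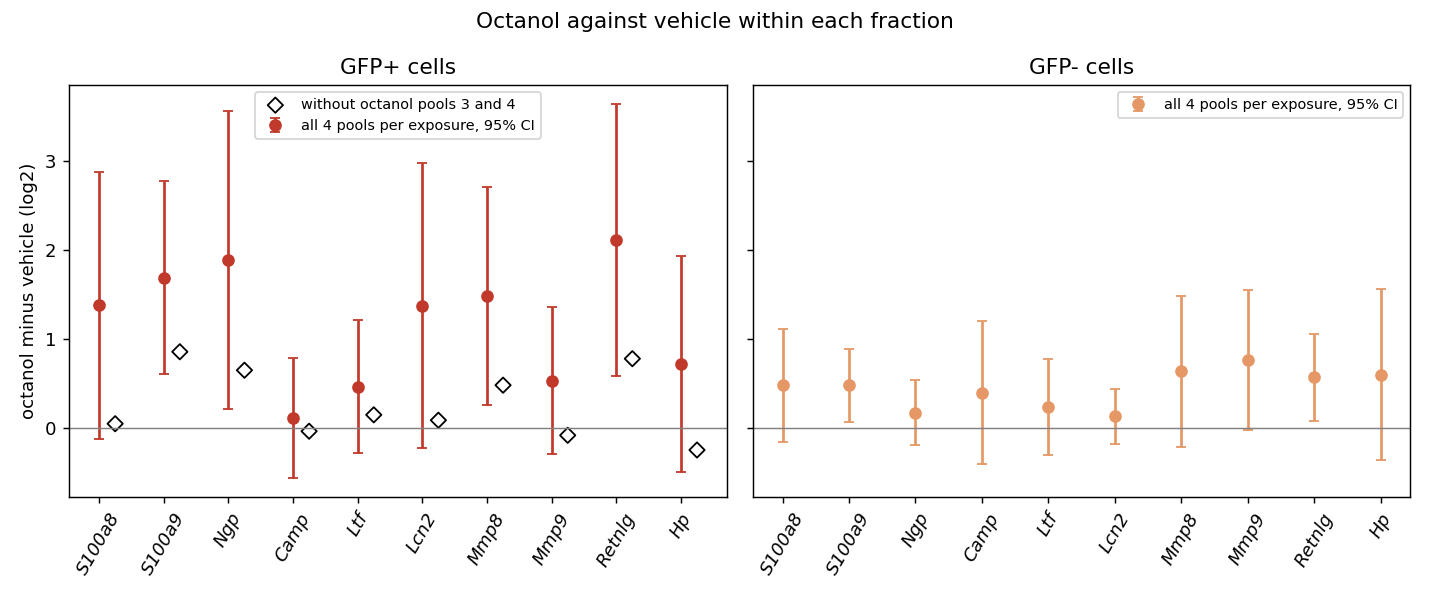
Octanol minus vehicle difference (log2) of each gene in GFP+ cells (left) and in GFP- cells (right), with 95% confidence intervals from limma over 4 arrays per exposure; open diamonds leave out octanol pools 3 and 4. In GFP+ cells the values run from 0.11 (Camp) to 2.12 (Retnlg) and in GFP- cells from 0.13 (Lcn2) to 0.76 (Mmp9).

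The gap between the fractions did not differ detectably between the exposures. In the test of octanol on the GFP+ minus GFP- difference 0 of 10 passed, as 0% of all genes (limma, smallest adjusted p 0.998 for the 10 and 0.863 over all genes). The fitted change was positive, a smaller gap after octanol, for 8 genes and negative for Camp (-0.29, 95% interval -1.07 to 0.49) and Mmp9 (-0.23, -1.46 to 0.99). Both signs rest on GFP+ values near or under background, since Camp exceeded it on 2 of 4 octanol and 2 of 4 vehicle GFP+ arrays and Mmp9 on 1 of 4 and 0 of 4. Ngp (1.72, 0.09 to 3.35) and Retnlg (1.55, 0.02 to 3.08) had an unadjusted p under 0.05, 2 of 10 against 4.54% of all genes in either direction and 2.59% higher. For all 10 the differences of the octanol pools overlapped those of the vehicle pools, while 1.55% of all genes were higher without overlap. The median of the 10 was 0.88 with all pools and -0.11 without octanol pools 3 and 4, which were picked for their high GFP+ values. The difference between GFP+ and GFP- cells after octanol itself had a median of -8.02 without them in place of -7.07, and all 10 genes passed either way. None of the 15 lists of other genes gave a call for octanol in either fraction or on the gap (limma, smallest adjusted p 0.982).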

How the data were processed

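RNA of 16 sorted fractions (50 to 100 ng each) was measured on Clariom S arrays. The deposited log2 values were computed by the authors with Affymetrix Expression Console, per the submitters' processing notes; neither its version nor its settings were found there. They were used as deposited, with a range of 2.22 to 18.70 log2 and medians per array between 7.42 and 7.70. The number of arrays limits the precision.

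Of 28846 probe sets, 19572 carry 1 gene symbol in the platform annotation and 9274 carry several or none. All 19572 were matched by Entrez number to RefSeq. Where several measure 1 gene the one with the highest mean was taken, which left out 67 and gave 19505 genes. Where 24 mice give 8 pools of 3, both fractions of 1 exposure and replicate number were taken as the same mice. This is inferred. Residuals of both fractions of a pool correlated at 0.0779 to 0.222, with 6 of 8 pools above 0.1, so they do not settle it.

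Fractions and the octanol effect on their difference were fitted with limma 3.58.1 (R 4.3.3, lmFit and eBayes, 2-sided) on 16 arrays with a fixed block for each pool, and octanol against vehicle on the 8 arrays of a fraction. P-values were adjusted over all 19505 genes by the Benjamini-Hochberg method, with a threshold of 0.05, and the fits were tested on simulated data. The labels do not say more of the replicates than pools of 3 mice. The 10 genes and the 15 lists (126 genes, 111 measured) were chosen with earlier results of these data known. All 10 genes are named. From each list up to 4 genes past the threshold with the largest difference after vehicle are named, and the 10 genes most like the mean of the 10 are those with the highest Pearson correlation over 8 GFP- arrays after subtracting exposure means. Alternatives were quantile normalization, centring, a filter, other probe set and eBayes settings, other blocks, other background levels and leaving out pools. Figures were drawn with matplotlib 3.10.9 in Python 3.11.15.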

Additional observations from a re-analysis of the deposited data

How the results depend on the processing

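The counts of called genes were the same under every alternative run: 10 of 10 lower in GFP+ cells after octanol and after vehicle, and 0 of 10 for the octanol comparisons. For 1 alternative this says little: each of the 10 genes has 1 probe set, so averaging probe sets left their values unchanged. Differences between the fractions ranged from -8.80 to -5.98 log2 after octanol (highest adjusted p 3.67e-04) and from -8.63 to -6.66 after vehicle (1.13e-04). Each pool has both fractions and each number both exposures, so these blocks cannot move a fitted difference, only its error. S100a8 thus necessarily stayed at -7.38 after octanol and -8.28 after vehicle without the block of pools. In the same way Retnlg stayed at 2.12 for octanol in GFP+ cells with the replicate number as a block, and it did not pass. Neither block changed a call. Arrays of the same number and fraction in the other exposure correlated at 0.0582 to 0.332 (mean 0.181). Both fractions of 1 pool had a mean of 0.160. Of 16 arrays 11 matched their own number best in the other exposure, so arrays of 1 number were more alike than others. The numbers were not used as pairs in the main fits because the exposures are different mice. What arrays of 1 number share is not given by the labels and was not tested. Of 80 GFP+ values 66 lay above the 90th percentile background (5.99 log2) and 45 above the 99th (7.13), against 61. Centring arrays on their medians moved the median of all genes to 0.41 after octanol and 0.46 after vehicle, and the share of higher genes among all called to 84.9% and 86.5% (63.4% and 65.0% after quantile normalization), against 55.9% and 52.2% as deposited.

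Fitted signs that reversed were all uncalled, and the cause was not tested. For the octanol effect on the gap, leaving out 1 pool gave Mmp9 between -0.60 and 0.27 and Hp between -0.19 and 0.54. Leaving out octanol pools 3 and 4, chosen after seeing the data, gave S100a8 -0.52, Ltf -0.15, Lcn2 -0.018, Mmp8 -0.073 and Hp -0.75. For octanol in GFP+ cells Camp ranged from -0.13 (without vehicle pool 3) to 0.27 when 1 pool was left out, and leaving out octanol pools 3 and 4 gave Camp -0.037, Mmp9 -0.083 and Hp -0.25.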
